A study of Mus musculus with 3 samples.

Results

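The S100 family was followed in single cells of the mouse pituitary intermediate lobe (IL), the layer between the anterior and posterior lobes whose main endocrine cells are melanotrophs. The members were chosen by name. Of 10 listed genes, 8 had a row in all 3 count tables used here (S100a1, S100a4, S100a6, S100a10, S100a11, S100a13, S100a16 and S100b), out of 15527 genes with a row in all 3 tables and 17775 with a row in any. S100a8 and S100a9 are not analysed here. Droplet libraries were made from dissociated ILs of 3-month-old mice, 1 library per genotype, so no comparison has a replicate and none was tested. By their labels, all 3 carried Sox9iresCreERT2/+, which places an inducible Cre recombinase at Sox9, a gene of pituitary stem cells (SCs), and the methods add a Rosa26ReYFP reporter in all 3. WT had no further allele, and P27NULL was also p27-/- (null for Cdkn1b, the cell cycle inhibitor p27). S2CK was Sox2fl/+;p27-/-, so that Cre could remove 1 copy of Sox2 in cells with Sox9. The study treats this as a deletion in SCs, and its text also places SOX9 in the posterior lobe. All mice received tamoxifen, at 4 weeks of age by the labels, whereas the study's text places it at birth. WT pooled males, while P27NULL and S2CK each pooled male and female mice. Animals of the same sex cannot be told apart. Within P27NULL and S2CK a split of cells by sex is also a split between animals.

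S100 proteins are small calcium-binding proteins built on EF-hand motifs, found only in vertebrates. Most work as dimers that expose a binding surface when calcium rises and then hold partner proteins such as annexins, myosin or signalling enzymes. Some are also secreted. In the pituitary, S100b is best known from the folliculostellate cells of the anterior lobe.

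The 3 libraries held 2020, 4153 and 3488 cells (WT, P27NULL, S2CK) with 8332285, 15588317 and 19239147 UMIs (unique molecular identifiers, each marking 1 captured transcript). Cells were clustered with all S100 genes left out, and clusters were named from marker genes. SC-like cells numbered 136, 104 and 83 and melanotroph-like cells 1296, 3540 and 3010. All 6 SC markers (Cyp2f2, Lcn2, Mia, Cpxm2, Rbpms and Ednrb) were found in SC-like cells of each library, at a summed 9990, 8401 and 5268 CPM (UMIs of the genes per 1000000 UMIs of the same cells). Marker lists of other types in the same cells stood at 231, 164 and 199 CPM for macrophages, 48.8, 153 and 145 CPM for connective tissue, 639, 904 and 41.3 CPM for gonadotrophs and 118, 31.7 and 229 CPM for the Pou1f1 lineage. Their part in the S100 levels was not tested, nor was that of the lower SC markers in S2CK. Sox2 stood at 282, 309 and 133 CPM in SC-like cells and at 47.0, 41.4 and 26.2 CPM in melanotroph-like cells. It was thus lowest in S2CK in both cell types, not in SC-like cells alone. Cdkn1b stood at 47.0, 50.2 and 25.4 CPM in SC-like cells and at 34.6, 30.7 and 16.9 CPM in melanotroph-like cells. It was thus not absent from P27NULL, and since the deleted part of the gene is not given in the sources used here, these 3′ counts do not check the label. A total of 10 barcodes occurred in more than 1 library. Cells with Xist and no Y-linked transcript were called female, and cells without Xist were called male. All 2020 WT cells, 3370 P27NULL cells and 214 S2CK cells were called male, so genotype and sex cannot be told apart between S2CK and P27NULL as a whole. A female cell with no Xist UMI counts as male by this rule. Male calls in S2CK were 17 of 43 endothelial-like, 13 of 29 T or NK-like and 119 of 3010 melanotroph-like cells, with medians of 2134, 1787 and 5022 UMIs. Values of S2CK against the female P27NULL cells alone are therefore given for the members and for Anxa1, Anxa2, Anxa3, Ahnak, Calb1 and Nucb2, where they had UMIs to compare (73 of 83 S2CK SC-like cells and 18 of 104 P27NULL ones were female). For other genes named below, such as Cacybp and Myh9, they were not computed.

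Of the 10 listed genes, 9 lie on chromosome 3 between positions 90511034 and 93564645 (GRCm38.p6, RefSeq) and S100b lies on chromosome 10. The windows from 250 bases before to 50 after the annotated start were available for 9 of them and not for S100a10. The 4 printed here belong to the genes the results turn on, with 5′ to 3′ on the strand of the gene. S100a6 (chr3:90612644-90612943) and S100a4 (chr3:90603520-90603819) start 9124 bases apart and were the members at least 2-fold apart between S2CK and P27NULL in SC-like cells. S100a11 (chr3:93520246-93520545) had the most UMIs in melanotroph-like cells. S100a13 (chr3:90514185-90514484) shares 204 bases with the window of S100a1, which runs the other way. Capitals mark TATAAA in S100a4, TGANTCA (the AP-1 motif) in S100a11 and the shared bases in S100a13.
S100a6: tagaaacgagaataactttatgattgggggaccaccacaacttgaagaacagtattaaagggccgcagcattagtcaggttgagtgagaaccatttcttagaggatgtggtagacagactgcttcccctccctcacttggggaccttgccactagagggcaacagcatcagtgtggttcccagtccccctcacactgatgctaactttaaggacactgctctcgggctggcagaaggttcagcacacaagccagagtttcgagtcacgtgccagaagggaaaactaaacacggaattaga
S100a4: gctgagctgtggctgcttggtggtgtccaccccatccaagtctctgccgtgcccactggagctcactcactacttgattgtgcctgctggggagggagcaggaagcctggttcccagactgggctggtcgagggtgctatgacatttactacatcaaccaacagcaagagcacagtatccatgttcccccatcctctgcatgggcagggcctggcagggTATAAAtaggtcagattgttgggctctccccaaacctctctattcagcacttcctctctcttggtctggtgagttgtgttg
S100a11: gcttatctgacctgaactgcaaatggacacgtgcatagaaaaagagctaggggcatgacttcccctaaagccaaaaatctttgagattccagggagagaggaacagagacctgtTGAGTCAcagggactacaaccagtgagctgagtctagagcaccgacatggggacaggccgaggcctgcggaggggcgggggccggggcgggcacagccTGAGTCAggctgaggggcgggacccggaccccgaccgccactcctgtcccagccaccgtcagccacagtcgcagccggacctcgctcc
S100a13: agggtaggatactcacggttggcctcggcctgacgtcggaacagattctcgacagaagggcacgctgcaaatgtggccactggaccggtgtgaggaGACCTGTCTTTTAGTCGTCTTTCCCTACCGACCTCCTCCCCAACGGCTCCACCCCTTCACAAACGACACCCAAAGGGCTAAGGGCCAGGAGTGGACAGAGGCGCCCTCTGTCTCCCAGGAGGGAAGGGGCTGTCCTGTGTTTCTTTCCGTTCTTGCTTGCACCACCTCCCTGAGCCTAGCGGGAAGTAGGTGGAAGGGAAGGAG
On either strand TATAAA was in 13.6% of all 32851 such windows and TGANTCA in 7.81%. S100a4 held TATAAA from base -31 relative to the start, and S100a11 held TGANTCA from bases -136 and -38. ACAAAG and ACAATG, the core letters of SOX-type sites, were in 18.7% and 12.6% of all windows and in neither the S100a6, S100a4 nor S100a11 window. By their outer gene limits S100a1 and S100a13 overlap by 98 bases on opposite strands. The S100a13 window is set on a start further into the gene than that limit.

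S100 transcripts were far more abundant in SC-like than in melanotroph-like cells. The 8 members together made 4447, 4004 and 6932 CPM in SC-like cells of WT, P27NULL and S2CK, and 487, 502 and 530 CPM in melanotroph-like cells. A high sum was not particular to SC-like cells. It was 5037, 3439 and 4816 CPM in T or NK-like cells and 3674, 3084 and 2862 CPM in connective-tissue-like cells. Endothelial-like cells had 2415, 3158 and 2895 CPM. Pituicyte-like, macrophage-like, gonadotroph-like and Pou1f1-lineage-like cells stayed at 2490 CPM or less. The log2 ratio of SC-like to melanotroph-like cells was 3.19 in WT (95% interval 3.11 to 3.27), 3.00 in P27NULL (2.91 to 3.08) and 3.71 in S2CK (3.66 to 3.76). These intervals are exact conditional ones and, like all intervals below, cover counting error only. Members at least 2-fold higher in SC-like cells numbered 6 of 7 in WT, 6 of 7 in P27NULL and 7 of 7 in S2CK among those with at least 10 UMIs, against 20.8%, 21.3% and 21.9% of all genes. The median cell held UMIs of 4, 4 and 5 members in SC-like cells and of 2, 1 and 2 in melanotroph-like cells. Melanotroph-like cells were deeper, with a median of 4133, 2822 and 5022 UMIs against 2027, 2317 and 3572 in SC-like cells.

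**Figure D1:**
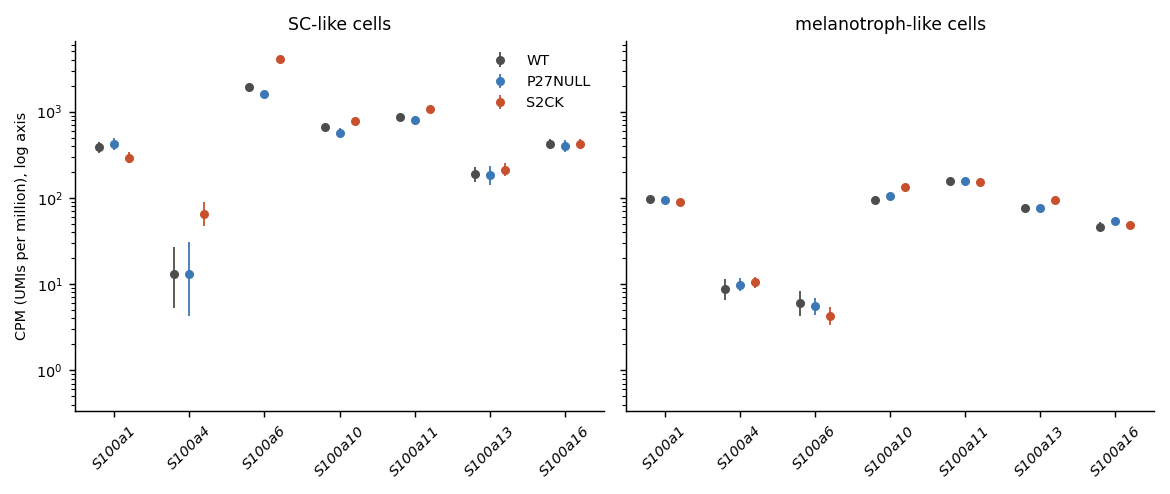
CPM of 7 S100 members in SC-like cells (left) and melanotroph-like cells (right) of the 3 libraries, on a log axis, with 95% Poisson intervals. S100a6 lies between 1621 and 4077 CPM in SC-like cells and at 6.03 CPM or less in melanotroph-like cells, whereas the other members differ less between the cell types. S100b is left out because it had at most 1 UMI in SC-like cells.

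S100a6 (calcyclin, a partner of annexins and of the calcyclin-binding protein Cacybp) set the SC-like cells apart most from melanotroph-like cells. Its level in SC-like cells was 1916 CPM in WT (1020 UMIs, interval 1801 to 2038), 1621 CPM in P27NULL (613 UMIs, 1495 to 1755) and 4077 CPM in S2CK (2565 UMIs, 3921 to 4238). In melanotroph-like cells it was 6.03, 5.56 and 4.27 CPM, a ratio of 318-fold, 292-fold and 954-fold to SC-like cells of the same library. A UMI of S100a6 was found in 82.4%, 71.2% and 86.7% of SC-like cells and in 2.08%, 1.89% and 2.23% of melanotroph-like cells. Pou1f1-lineage-like cells, the growth hormone and prolactin lineage, held it in 0 of 60, 0 of 29 and 1 of 34 cells, where a count of 0 allows a share of up to 5.0% in WT and 10.3% in P27NULL. So few cells give no measured background share, and the melanotroph-like shares cannot be told from background here. S100a6 alone made 43.1%, 40.5% and 58.8% of the S100 UMIs of SC-like cells and 1.24%, 1.11% and 0.81% of those of melanotroph-like cells.

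Between S2CK and P27NULL, S100a6 was the member with the clearest difference in SC-like cells. The log2 ratio was 1.33 (1.20 to 1.46), or 2.52-fold higher in S2CK. For P27NULL against WT it was -0.24 (-0.39 to -0.10), but -0.06 (-0.33 to 0.21) on thinned cells and 0.03 with each cell weighted equally, so that no direction is read from it. S2CK lay above both other libraries. With cells thinned to 1000 UMIs each (125, 104 and 83 cells, 11 WT cells left out), the share of SC-like cells with S100a6 was 70.4% in WT (interval 61.6 to 78.2), 56.7% in P27NULL (46.7 to 66.4) and 78.3% in S2CK (67.9 to 86.6), in the same order as the CPM. The median SC-like cell had 1561, 876 and 3976 CPM of S100a6, and the cells at 1000 CPM or more were 61.8%, 45.2% and 79.5%. The 5 cells with the most S100a6 UMIs held 27.4%, 36.9% and 30.5% of them, and the highest cells of WT, P27NULL and S2CK reached 13430, 17029 and 15652 CPM. The quartiles and the median thus set S2CK apart, and the single highest cells did not. Against the 18 female P27NULL SC-like cells alone, which held S100a6 at 1338 CPM (65 UMIs), the log2 ratio of S2CK was 1.61 (1.25 to 1.99). Over the 12 alternatives of processing the log2 ratio was between 1.03 and 1.61. In melanotroph-like cells S100a6 was too rare for a direction (37, 76 and 73 UMIs, log2 ratio of S2CK to P27NULL -0.38 with an interval of -0.86 to 0.10, and 0.47 with an interval of -0.54 to 1.65 against female P27NULL cells). When cells were named from the markers the study used, the P27NULL melanotroph class held 3715 in place of 3540 cells and that ratio became -2.19, while the P27NULL ratio of SC-like to melanotroph-like cells went from 8.19 to 6.13 on the log2 scale. That class then took in a macrophage cluster of 119 cells and a connective-tissue cluster of 51 cells. Their part in these values was not tested.

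**Figure D2:**
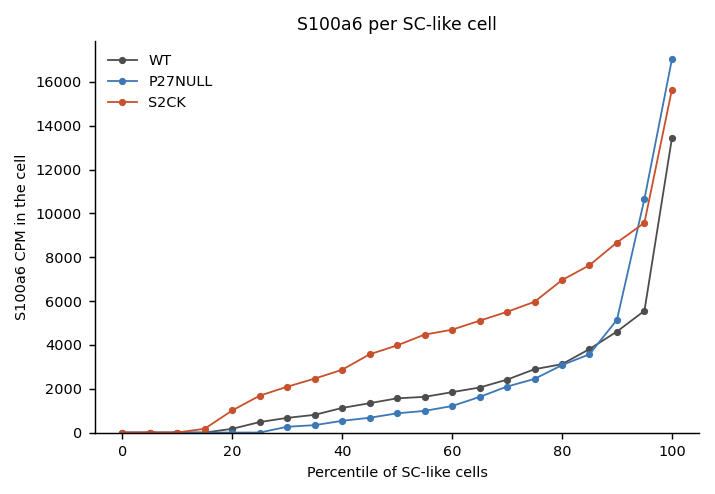
S100a6 CPM of single SC-like cells of each library, plotted in steps of 5 percentiles of cells (x axis) on a linear y axis. The S2CK line lies above the others from the 15th to the 90th percentile, and the P27NULL line passes it at the 95th.

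S100a4 (metastasin, a partner of the non-muscle myosin Myh9 linked to cell motility) was rare in SC-like cells of WT and P27NULL and more frequent in S2CK. There were 7 UMIs in 6 of 136 cells, 5 UMIs in 5 of 104 cells and 41 UMIs in 23 of 83 cells. In CPM this was 13.2 in WT (5.29 to 27.1), 13.2 in P27NULL (4.29 to 30.9) and 65.2 in S2CK (46.8 to 88.4). WT and P27NULL were close to the melanotroph-like level of 8.64, 9.87 and 10.4 CPM, in 3.63%, 3.45% and 5.32% of cells. S2CK against P27NULL gave a log2 ratio of 2.30 (0.96 to 4.00), a wide interval because P27NULL held 5 UMIs. After thinning, S100a4 was found in 0 of 125, 0 of 104 and 9.64% of 83 SC-like cells (4.25 to 18.1). Thinning left no S100a4 UMI to compare in P27NULL. Against the 18 female P27NULL cells, which held 1 UMI, the log2 ratio was 1.66 with an interval of -0.90 to 7.0. T or NK-like cells had the highest S100a4 level, at 322, 104 and 581 CPM (16, 3 and 42 UMIs), beyond counting error from the next type in WT and S2CK. Their marker list added up to 2 UMIs in the S2CK SC-like cells, with 8 of its 9 genes at 0. Of the 23 S2CK SC-like cells with S100a4, 3 also held a macrophage marker and 0 a T or NK marker, against 11 and 1 of the 60 without it. A connective-tissue marker was in 7 of the 23 and 15 of the 60. Those 23 cells were deep, with a median of 9711 UMIs against 3283. They carried S100a6 at 6507 CPM, while the other 60 carried it at 2742 CPM. In WT the 6 cells with S100a4 carried 3216 CPM and the others 1808 CPM, and in P27NULL the 5 cells with S100a4 carried 1533 CPM and the others 1647 CPM, so the order was not the same in all 3 libraries.

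Among the other members S100a10 and S100a11 differed less. S100a10 (the light chain p11 that pairs with annexin A2 and does not itself bind calcium) stood at 665, 571 and 787 CPM in SC-like cells. S100a11 (a partner of annexin A1) stood at 859, 793 and 1073 CPM. The log2 ratio of S2CK to P27NULL was 0.46 (0.23 to 0.70) for S100a10 and 0.44 (0.24 to 0.64) for S100a11, with S2CK highest in both. Against female P27NULL cells alone, these became -0.20 (-0.65 to 0.28) and 0.06 (-0.36 to 0.50). P27NULL SC-like cells called female held S100a10 at 906 CPM and those called male at 522 CPM, a log2 ratio of 0.80 (0.28 to 1.28) within 1 library. Sex and animal cannot be told apart in that ratio. The intervals of S100a10 and S100a11 against female cells hold 0, whereas that of S100a6 does not.

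S100a1, known from the control of calcium cycling in muscle, was the member that went the other way. It stood at 385 and 418 CPM in WT and P27NULL and at 292 CPM in S2CK (252 to 338), a log2 ratio of -0.51 (-0.83 to -0.20) for S2CK against P27NULL. The share of SC-like cells with a UMI was instead highest in S2CK, at 66.2%, 66.3% and 73.5%, and on thinned cells the log2 ratio was 0.17, so that no order is read for S100a1. With female P27NULL cells as the reference it was -0.56 (-1.22 to 0.16). S100a13, which takes part in the release of FGF1 together with Syt1, stood at 190, 182 and 213 CPM. S100a16, a widely expressed member, stood at 417, 405 and 424 CPM. Their S2CK to P27NULL log2 ratios of 0.22 (-0.21 to 0.66) and 0.07 (-0.22 to 0.37) had intervals that hold 0, which leaves room for differences of either sign up to those bounds. The values against female P27NULL cells were 0.20 (-0.77 to 1.36) and -0.03 (-0.67 to 0.69).

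**Figure D3:**
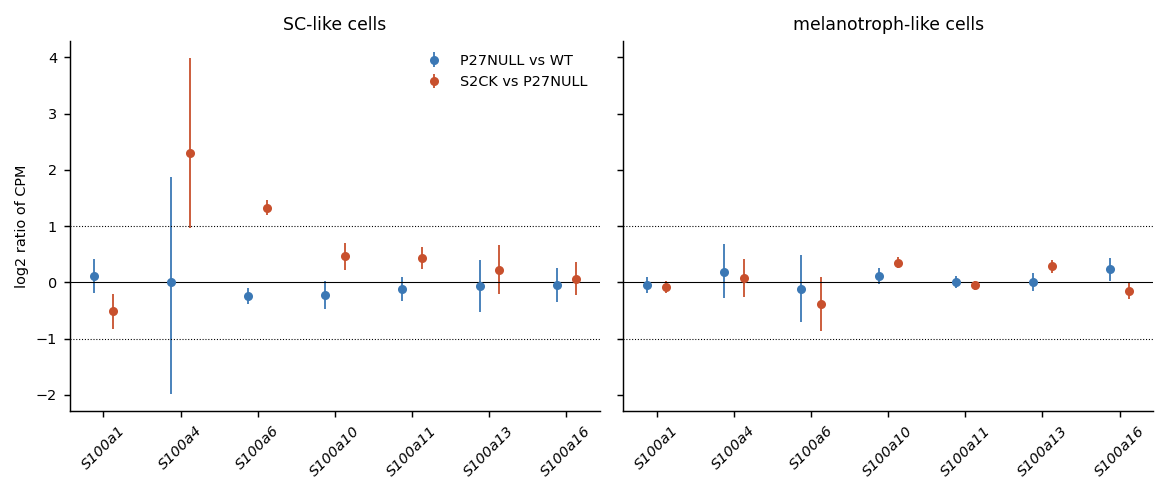
Log2 ratio of CPM for 7 S100 members between libraries in SC-like cells (left) and melanotroph-like cells (right), with exact 95% intervals for counting error. Dotted lines mark 2-fold. S100a6 at 1.33 and S100a4 at 2.30 for S2CK against P27NULL in SC-like cells are the only points past 2-fold.

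For S2CK against P27NULL in SC-like cells, 2 of 7 members were at least 2-fold apart (S100a6 and S100a4), against 18.1% of all genes. For P27NULL against WT 0 of 7 were, against 12.6%. The median log2 ratio of the members was 0.44 in the first comparison, where that of all 8914 genes was -0.11, and -0.06 in the second, where that of all 8517 genes was 0.03. These medians are from P27NULL cells of both sexes. The summed S100 level was higher in S2CK than in P27NULL, with a log2 ratio of 0.79 (0.71 to 0.88), and without S100a6 it was 0.26 (0.14 to 0.38). Against female P27NULL cells alone the sum gave 0.67 (0.48 to 0.88), and S100a6 was the only member whose interval lay above 0. A rise of the family as a whole is therefore not read from the median. P27NULL against WT gave -0.15 (-0.25 to -0.06), and without S100a6 -0.09 (-0.21 to 0.04). With only the P27NULL cells called male, the sum against WT was -0.17 (-0.27 to -0.07).

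**Figure D4:**
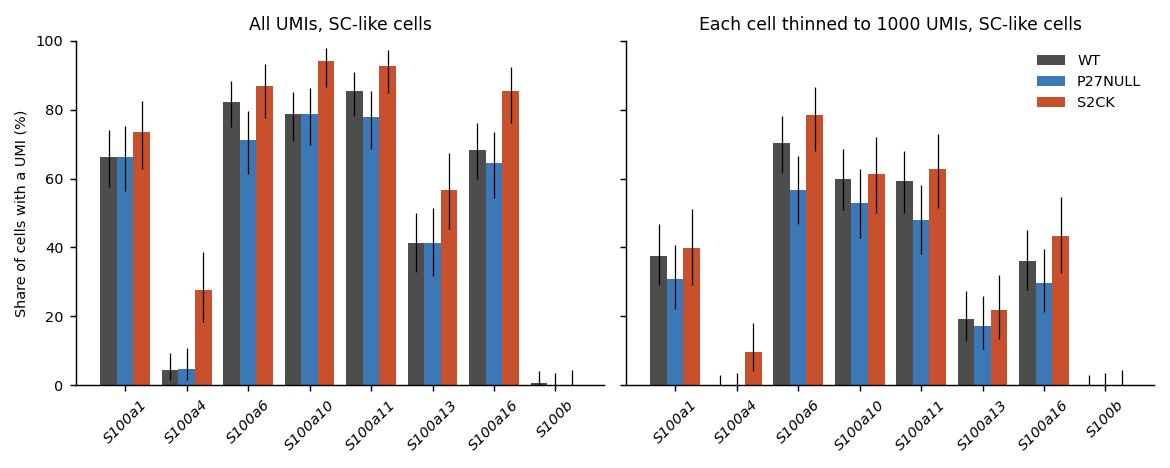
Share of SC-like cells with at least 1 UMI of each S100 member, from all UMIs (left) and after thinning each cell to 1000 UMIs (right), with exact 95% binomial intervals. After thinning S100a4 is at 0% in WT and P27NULL and 9.64% in S2CK, and the intervals of S100a1, S100a10, S100a11, S100a13 and S100a16 overlap among the libraries. From all UMIs, S2CK stands above both others for S100a10 (94.0%) and S100a16 (85.5%).

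In melanotroph-like cells no S100 member was 2-fold apart in either comparison of libraries. In the order WT, P27NULL, S2CK, S100a11 was at 156, 157 and 151 CPM, S100a1 at 97.7, 95.1 and 89.8 CPM, and S100a16 at 46.1, 54.2 and 48.8 CPM. S100a10 was at 95.6, 104 and 132 CPM and S100a13 at 76.3, 76.3 and 93.1 CPM. Both were higher in S2CK than in P27NULL, with log2 ratios of 0.35 (0.25 to 0.44) and 0.29 (0.17 to 0.40). Against female P27NULL cells alone (640 cells) they were 0.53 (0.35 to 0.72) and 0.49 (0.27 to 0.71), and with TMM factors 0.48 and 0.42. Against the same female cells S100a1 was at 0.30 (0.09 to 0.52), so no order is read from its CPM. S100a4 was at 0.92 (0.18 to 1.76) from 178 and 16 UMIs, and S100a16 at 0.13 (-0.14 to 0.41). S100b had 1 UMI in those female cells. The count was 0 of 8 members in each comparison, beside 6.71% of all genes past 2-fold from WT to P27NULL and 8.12% from P27NULL to S2CK. The sum gave a log2 ratio of 0.04 (-0.02 to 0.11) from WT to P27NULL and 0.08 (0.03 to 0.12) from P27NULL to S2CK, or 0.28 (0.19 to 0.36) from female P27NULL cells to S2CK. Within P27NULL, melanotroph-like cells called female had a lower S100 sum than those called male, at 437 against 521 CPM, a log2 ratio of -0.25 (-0.34 to -0.16). Sex and animal cannot be told apart in that ratio either. WT has no cells called female. For the P27NULL cells called male against WT the sum gave 0.10 (0.03 to 0.16). Among the members only S100a10 at 0.17 (0.03 to 0.32) and S100a16 at 0.30 (0.10 to 0.51) had intervals above 0 in that comparison. The sign of the sum from WT to all P27NULL cells turned to -0.03 with TMM factors, so no direction is read from it.

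The other cell types gave each member a range of its own. T or NK-like cells (31, 13 and 29 cells) had S100a6 at 2720, 1181 and 2380 CPM and S100a10 at 987, 1181 and 1149 CPM. S100a1 had 0, 2 and 1 UMIs and S100a16 0, 2 and 0 UMIs in cells of this type, where a count of 0 allows a share of up to 9.68% of the WT cells. In WT the order of S100a6 ran from T or NK-like to SC-like (1916 CPM) and connective-tissue-like cells (910 CPM), each step beyond counting error. In P27NULL SC-like (1621 CPM), connective-tissue-like (1386 CPM) and T or NK-like cells did not differ beyond it. In S2CK SC-like cells came first at 4077 CPM. S100a11 came first in SC-like cells of all 3 libraries, but its lead over the next type was within counting error in WT and P27NULL.

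Endothelial-like cells (78, 21 and 43 cells) led for S100a13, with levels of 998, 875 and 1036 CPM. This was above the next type in each library beyond counting error, and 82.1%, 90.5% and 97.7% of the cells held a UMI. S100a16 stood at 445, 516 and 662 CPM in endothelial-like cells. In S2CK pituicyte-like cells it reached 683 CPM and did not differ from endothelial-like cells beyond counting error. These are 16 cells, 1 of which held 17 of the 48 S100a16 UMIs. The pituicyte markers in them summed to 526 CPM (2070 in WT, 1731 in P27NULL), and the S2CK SC cluster gave 9 of its 92 cells to this type. Gonadotroph-like and Pou1f1-lineage-like cells had almost no S100a16, with 4, 5 and 2 UMIs and 0, 0 and 1 UMIs, but held S100a11 at 163 to 316 CPM and 187 to 247 CPM.

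S100b, the glial member, was rare in SC-like and melanotroph-like cells. SC-like cells held 1, 0 and 0 UMIs, where a count of 0 allows a share of up to 2.88% of cells in P27NULL and 3.61% in S2CK. Melanotroph-like cells held 5, 6 and 8 UMIs, in 0.31%, 0.17% and 0.23% of cells. Connective-tissue-like cells held 40, 26 and 9 UMIs (353, 184 and 57.8 CPM) in 18 of 53, 9 of 49 and 7 of 42 cells. Their marker list of 6 collagen and stroma genes was found in full in each library, and the mural list summed to 247, 262 and 757 CPM in the same cells, whose part in the S100b order was not tested. Pituicyte-like cells, the glia of the posterior lobe, held 10, 1 and 25 UMIs in 2 of 40, 1 of 18 and 4 of 16 cells. In WT 9 of the 10 UMIs came from 1 cell, so a level for this type rests on very few cells.

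**Figure D5:**
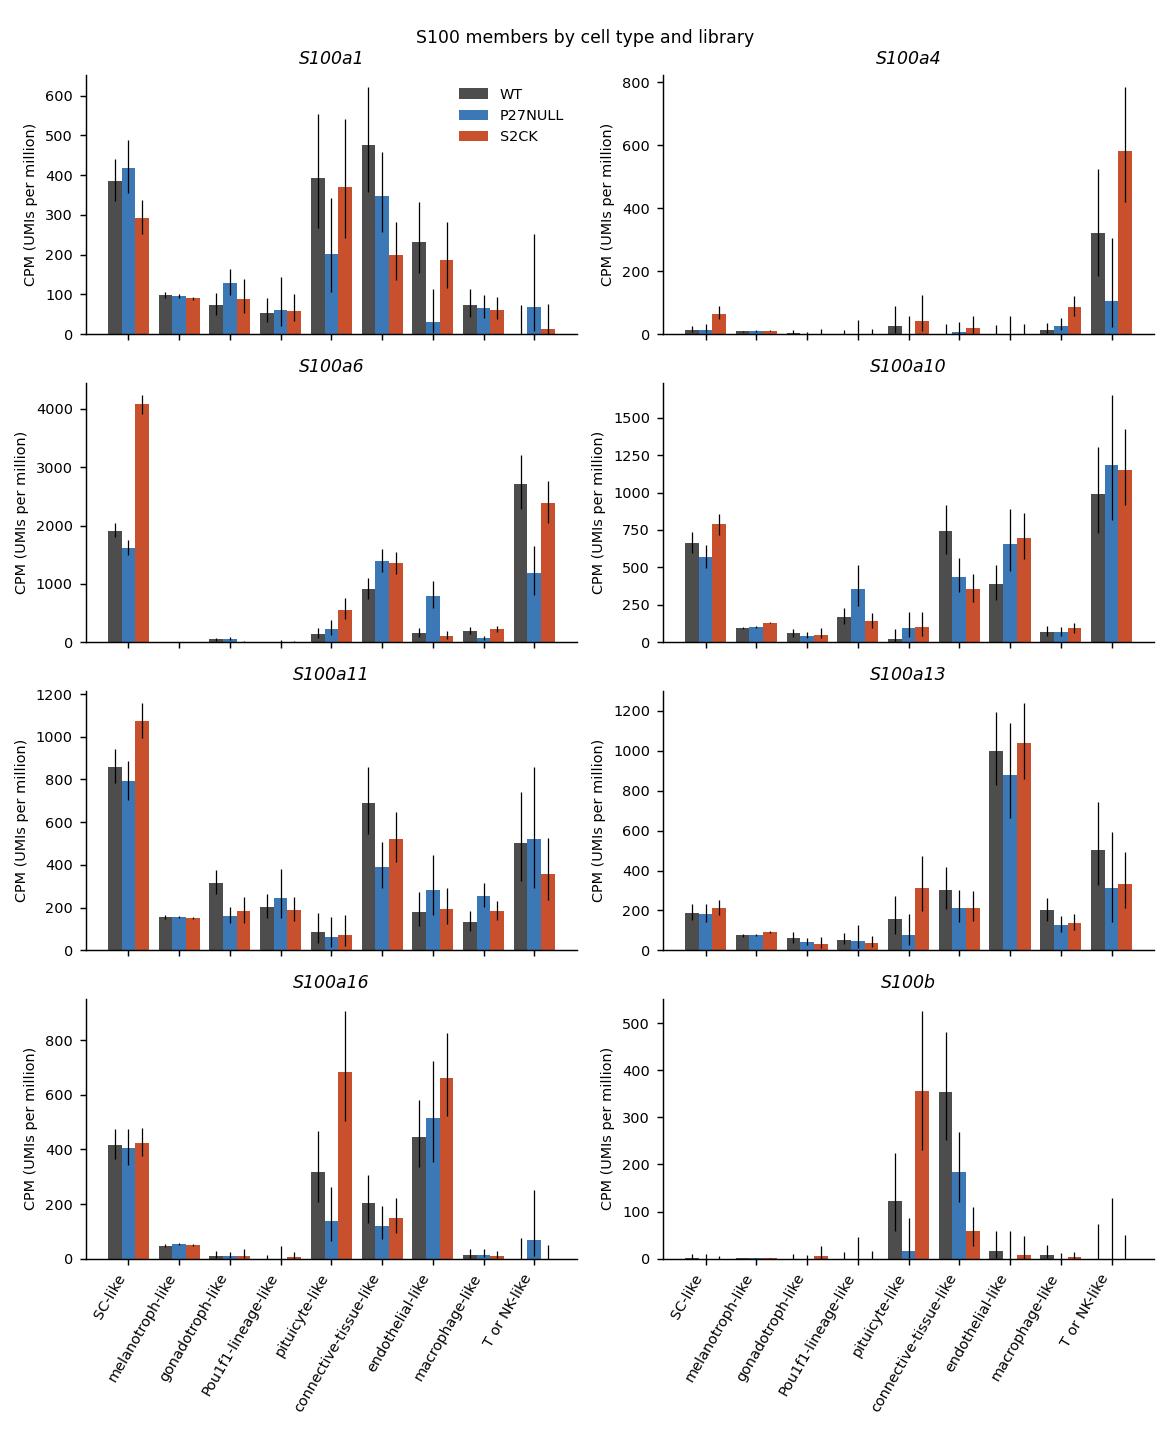
CPM of the 8 S100 members in the 9 named cell types, with 1 bar per library and 95% Poisson intervals, on linear axes that start at 0 and differ between panels. S100a6 is highest in T or NK-like cells of WT and in SC-like cells of P27NULL and S2CK, S100a4 in T or NK-like cells, S100a13 in endothelial-like cells and S100b in connective-tissue-like or pituicyte-like cells.

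Other S100 genes had few UMIs. S100a14 had 29 UMIs in all cells, of which SC-like cells held 9, 4 and 10. S100a3 had 34 UMIs, S100g 22 and S100a2 11, and S100a3 was mainly in melanotroph-like cells with 2, 15 and 14 UMIs. Its 15 against 2 UMIs made it the 1 of 2 counted genes of this group past 2-fold between P27NULL and WT, where 6.71% of all genes were. The log2 ratio of S100a3 was 1.75 (-0.35 to 4.92), with an interval that holds 0.

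Annexins, the calcium-dependent membrane-binding partners of several S100 proteins, were mostly higher in SC-like cells too. At least 2-fold higher in SC-like than melanotroph-like cells were 7 of 8 annexins in WT, 7 of 9 in P27NULL and 7 of 9 in S2CK. Of all genes, 20.8%, 21.3% and 21.9% were. Anxa2, the partner of S100a10, stood at 470, 336 and 534 CPM in SC-like and at 2.94, 1.02 and 1.70 CPM in melanotroph-like cells. Of 8 annexins in SC-like cells 1 was past 2-fold for S2CK against P27NULL, near the share of 18.1% over all genes. This was Anxa3, at 320 against 138 CPM (190 CPM in WT), with a log2 ratio of 1.22 (0.77 to 1.69), but 0.50 (-0.37 to 1.52) against female P27NULL cells, which held 11 UMIs. Anxa1 at 0.79 (0.18 to 1.43) and Anxa2 at 0.67 (0.37 to 0.98) were on the same side of 0. Anxa2 was at 0.89 (0.12 to 1.78) against female P27NULL cells, and Anxa1 had 1 UMI in those cells. The median of the 8 was 0.35. For P27NULL against WT 2 of 8 were past 2-fold beside 12.6% of all genes, Anxa1 at 1.13 (0.27 to 2.01) and Anxa4 at 1.02 (-0.31 to 2.43), and the median was -0.25. In melanotroph-like cells the annexins past 2-fold had few UMIs. Anxa2 had 14 against 18 UMIs for P27NULL and WT, Anxa3 had 13 against 2 for S2CK and P27NULL, and Anxa1 had 10 against 0.

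Among partners and receptors of S100 proteins, none of 13 was past 2-fold for S2CK against P27NULL in SC-like cells, with a median of 0.20, where 18.1% of all genes were. For P27NULL against WT 1 of 12 was, which is Anxa1 again, where 12.6% of all genes were. Ahnak, a large scaffold that binds S100a10 and annexin A2, lay at 535, 727 and 443 CPM in SC-like cells. Its log2 ratio of -0.71 (-0.96 to -0.47) for S2CK against P27NULL was opposite to that of S100a6, but against female P27NULL cells it turned to 0.34 (-0.36 to 1.14), so no direction is read. In melanotroph-like cells Ahnak was at 4.10 against 13.2 CPM, with a log2 ratio of -1.69 (-2.11 to -1.29), or -0.59 (-1.36 to 0.24) against female P27NULL cells. Cacybp was at 171, 151 and 118 CPM and Myh9 at 58.3, 52.9 and 89.01 CPM in SC-like cells. Other EF-hand proteins gave 0 of 16 past 2-fold for S2CK against P27NULL and 1 of 16 for P27NULL against WT (18.1% and 12.6% of all genes), Nucb1 at 1.06 (0.25 to 1.89). Of 18, 19 and 20 counted genes of this group, 4, 5 and 5 were at least 2-fold higher in SC-like than in melanotroph-like cells. This is near the 20.8%, 21.3% and 21.9% of all genes that were. At least 2-fold lower were 4, 6 and 7, a direction for which no share over all genes was counted. Calb1, the calcium buffer calbindin, was one of the lower genes, at 28.2, 37.0 and 73.1 CPM in SC-like and 289, 347 and 665 CPM in melanotroph-like cells. Pomc, the hormone gene of melanotrophs, had a UMI in 93.4%, 96.2% and 100% of SC-like cells. The part of melanotroph RNA in the SC-like Calb1 values was not tested. In melanotroph-like cells Calb1 also differed between S2CK and P27NULL, with a log2 ratio of 0.94 (0.89 to 0.99), and Nucb2, a nucleobindin gene, was past 2-fold at -1.06 (-1.16 to -0.95). Against female P27NULL cells these were 0.95 (0.86 to 1.05) and -1.54 (-1.68 to -1.39).

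Over 25 sums of library and cell type, 12088 genes were compared with each member by Pearson correlation of log2(CPM + 1). Sums of 1 library share depth and those of 1 type share markers, so these values only describe. Ahnak (0.90), Pdlim2 (0.89) and Lamtor5 (0.88) were most like S100a6. Gstt1 (0.91) was most like S100a1, Hspb8 (0.92) most like S100a16 and 1700020I14Rik (0.91) most like S100a13. The most alike members were S100a1 and S100a16 (0.74) and S100a10 and S100a11 (0.70).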

How the data were processed

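Samples were dissociated intermediate lobes, run on the 10x Genomics Chromium Single Cell 3′ kit. The authors used Cell Ranger 3.0.2 to count UMIs (STAR 2.5.1b is also named in the submitters' processing notes) on mm10, and they deposited raw counts, genes by barcodes, with no normalization. Their text states the removal of cells with few genes or high mitochondrial content. The tables differ in depth per cell: WT reaches down to 502 UMIs and 213 genes, with 162 cells under 1000 UMIs, and P27NULL and S2CK stop at 1005 and 1002 UMIs. Symbols matched RefSeq GRCm38.p6 for 91.9% of rows.

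Cells were clustered per library and jointly with scanpy 1.11.5 (Python 3.11.15; 2000 variable genes, 20 components, 20 neighbours, Leiden resolution 1), without S100 genes, Cdkn1b, Sox2, Sox9, Pomc and sex-linked genes. SC-like and melanotroph-like names came from each library's own clusters and other types from joint clusters, which took precedence: 9 of the 92 cells of the S2CK SC cluster were named pituicyte-like. A name needed 3 markers each found in 10% of cells, a mean relative marker level of 0.3, a lead of 0.1 and, among its 10 top genes by fold, at least as many own as foreign markers. The thresholds were chosen with the data in view. Unnamed cells numbered 134, 128 and 77. Doublets were kept: Scrublet marked 11 of 9661 cells and has not worked.

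UMIs were summed per library and type, giving 532221, 378149 and 629128 in SC-like and 6133101, 13675231 and 17085456 in melanotroph-like cells. CPM has exact Poisson intervals, shares have Clopper-Pearson intervals, and log2 ratios have exact conditional intervals, all at 95% and for counting error only. A count of 0 was given a limit of 3 counts. In place of a test, a ratio of at least 2-fold with at least 10 UMIs in both sums together was counted, beside all genes. Named genes were all members, plus the 4 largest ratios per list with at least 50 UMIs, of which some are described here, and those chosen after their values were seen (Anxa4 and Cacybp in SC-like cells, and low-count genes past 2-fold). Members and lists were chosen with earlier results of these data known. Alternatives used edgeR 4.0.16 (R 4.3.3) for TMM factors. The ratio step was run on simulated counts drawn with counting error only, as the intervals assume. That run checks the calculation and holds no variation between cells, animals or libraries.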

Additional observations from a re-analysis of the deposited data

Results flagged for a closer look

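Of the S100 results, 3 had estimates of opposite sign in SC-like and melanotroph-like cells, with counting intervals that do not overlap. In each case the difference between the cell types was not tested. The S100 sum for P27NULL against WT had a log2 ratio of -0.15 in SC-like and 0.04 in melanotroph-like cells. The second interval holds 0, and with TMM factors the melanotroph-like value was -0.030, the same sign as in SC-like cells. With only the P27NULL cells called male, the values were -0.17 (-0.27 to -0.07) and 0.10 (0.03 to 0.16). S100a6 for S2CK against P27NULL had 1.33 in SC-like and -0.38 in melanotroph-like cells, the latter from 73 and 76 UMIs, too few for a direction. Against female P27NULL cells it was 0.47 there, the same sign as in SC-like cells. S100a11 in the same comparison had 0.44 in SC-like and -0.05 in melanotroph-like cells. Against female P27NULL cells it had 0.06 (-0.36 to 0.50) and -0.02 (-0.17 to 0.12), and these intervals overlap.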

How the results depend on the processing

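No paired analysis was possible because each genotype has 1 library. Of 82 values of the S100 sum under alternatives 54 stayed within the counting interval, as did 492 of 566 values of single members, and of 56 counts 48 stayed. Of 213 member values past 2-fold 211 stayed so. Most of these set SC-like against melanotroph-like cells of the same library, so they do not bear on differences between genotypes. The only values between libraries were the S2CK to P27NULL ratios of S100a6 (12 values) and S100a4 (11 values) among SC-like cells. All of these stayed past 2-fold. Thinned cells gave no such ratio for S100a4, which had 0 UMIs left in P27NULL. The alternatives that name cells from each library's own clusters alone or weight each cell equally, and the values of annexins, Ahnak, Calb1 and Nucb2 against females, were chosen after seeing the data. Causes were not tested. The S100 sum of SC-like cells for S2CK against P27NULL (log2 ratio) was 0.94 without the cells of highest doublet score, 0.95 with the study's markers for naming, 0.93 with totals without Pomc, mitochondrial and ribosomal protein genes, 0.67 against females, 0.92 with TMM factors, 0.26 without S100a6 and 0.65 with cells weighted equally. Its count of members past 2-fold was 1 on thinned cells and 1 at 50 UMIs or more. For P27NULL against WT the SC-like count was 1 with the study's markers and 1 with equal weights. The melanotroph-like sum for P27NULL against WT was 0.12 with the study's markers, -0.047 with the reduced totals and -0.030 with TMM factors, and the count was 2 with the study's markers, 1 with own clusters and 1 with equal weights. For S2CK against P27NULL it turned to -0.0002 with the study's markers (count 2), and was 0.20 with the reduced totals, 0.15 thinned, 0.28 against females, 0.21 with TMM factors and 0.13 without S100a11. The study's markers placed the macrophage and connective-tissue clusters of P27NULL in the melanotroph class. They placed the pituicyte clusters of WT and P27NULL in the SC class. The SC-like to melanotroph-like ratio of WT was 3.00 with the study's markers, 2.87 with the reduced totals, 3.40 thinned and 3.32 with equal weights. That of P27NULL was 2.74 with the study's markers, 2.74 with the reduced totals, 3.22 thinned and 3.24 with equal weights. That of S2CK was 3.82 without top doublet scores, 3.47 with the reduced totals, 3.79 thinned and 3.79 with equal weights. Depth limits S100a4 and S100b in SC-like cells, where P27NULL held 5 and 0 UMIs.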
